A study of Mus musculus with 2197 samples.

Results

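The nuclear oxidative phosphorylation genes were followed across the embryonic mouse pancreas. The members are all genes whose symbol begins with Nduf plus a subunit letter and number, with Sdha to Sdhd, Uqcr, Cox4 to Cox8 or Atp5. The rule found 84 genes among the 40824 genes of the full-length single-cell table, after 3 symbols ending in -ps were left out. The same 84 symbols were found among the 27998 genes of the droplet libraries. Expression values played no part in the rule.

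Oxidative phosphorylation runs in the inner mitochondrial membrane. Complexes I and II pass electrons from NADH and succinate to ubiquinone, complex III passes them to cytochrome c, and complex IV passes them to oxygen. Complexes I, III and IV pump protons, and ATP synthase (complex V) lets the protons return through its c ring and makes ATP in its F1 head. The mitochondrial genome encodes a small core of these complexes, and nuclear genes encode the other subunits. In the adult beta cell, ATP made by this chain closes potassium channels and so couples glucose to insulin release.

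The study sorted single cells by reporter from mouse embryos and read them with Smart-seq2, which copies full-length mRNA. Pdx1-GFP+ cells, from a transgene for the pancreatic progenitor factor Pdx1, were taken at E9.5, E10.5 and E11.5, with a separate GFPhigh sort at E10.5. Pdx1-Cre with a Rosa-RFP reporter marked pancreatic lineages daily from E10.5 to E15.5. Ngn3-GFP, a knock-in at the endocrine progenitor gene Neurog3 (Ngn3), gave GFP+ cells at E10.5, E12.5, E16.5 and E17.5, and GFPhigh and GFPlow cells daily from E13.5 to E15.5. Ngn3-Cre with Rosa-RFP gave cells at E11.5, Ptf1a-CreER with Rosa-RFP at E11.5, and Sox9-CreER with Rosa-RFP at E16.5 and E17.5. Ins1-RFP+ and Gcg-GFP+ cells were taken at E15.5, and Gcg-GFP+ cells also at E17.5. A further Ins1-RFP+ sort came from explants, dorsal pancreas of E13.0 grown for 2 days, either untreated or in 10 µM U0126, which blocks the kinases MEK1 and MEK2. A Cre reporter stays on in all descendants of a marked cell, and GFP outlasts Neurog3 itself, so these sorts hold lineages rather than single cell types. No wild-type or unsorted Smart-seq2 group was used here.

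The 2195 Smart-seq2 cells fall into 29 groups and 82 sets, where a set is the number that the labels give before the cell number. Counts were summed per set, and sets were the replicates. The labels do not say that sets are separate embryos or litters, so a p-value here rests on set-to-set spread alone, and that spread may be technical. Each set held 6 to 71 cells and 2838610 to 79253014 gene counts, and single cells held 176524 to 2118160. The sorts carried their marker genes: Ins1 averaged 33910 counts per 1000000 (CPM) in Ins1-RFP+ cells at E15.5 and 82.39 in Gcg-GFP+ cells, and Gcg averaged 15.2 and 54860 CPM. Neurog3 averaged 1063 CPM at E13.5 in the Ngn3-GFPhigh sort and 3.899 CPM at E12.5 in the Ngn3-GFP+ sort. Digestive enzyme genes took 4.068% of counts in Sox9-CreER cells at E16.5 and 0.0768% at E17.5, and Ptf1a, a progenitor and acinar factor, averaged 138.9 and 4.394 CPM. Sox9 averaged 356.7 CPM at E16.5 and 1308 CPM at E17.5, so the earlier sort held acinar transcripts as well as Sox9 and is called by its reporter here, not as duct. In all, 206 cells carried at least 4 markers of a non-pancreatic type, 151 of them leukocyte markers. Fewer cells of a type and less RNA per cell cannot be told apart in summed counts.

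RefSeq promoters (GRCm38.p6, from 250 bases before to 50 after each start) were matched for 66 of the 84 genes. Both strands were searched for 4 words known from promoters of respiratory genes. The NRF1 word, a palindrome of GCGCA followed by its reverse complement, was in 5 of the 66 genes (7.58%), against 1.07% of all 27025 genes with a promoter. The ETS word CCGGAAG, bound by GABP, was in 24.2% of members and 9.93% of all genes, and the YY1 word AAGATGGC in 13.6% and 3.19%. The SP1 word GGGCGGGG was in 16.7% of members and 19.6% of all genes. The exact 95% intervals for the members were 2.51% to 16.8% for NRF1, 14.54% to 36.36% for ETS, 6.43% to 24.3% for YY1 and 8.62% to 27.9% for SP1, and genes are not independent replicates. The 5 sequences that follow run from 100 bases before to 30 after the start, with matched words in capitals, on the strand of the gene. Ndufa3, Atp5o, Atp5j and Atp5l are shown because their levels differed between sorts, and Atp5g2 because it carries the NRF1 word.
Ndufa3, chr7:3617273-3617402, plus strand: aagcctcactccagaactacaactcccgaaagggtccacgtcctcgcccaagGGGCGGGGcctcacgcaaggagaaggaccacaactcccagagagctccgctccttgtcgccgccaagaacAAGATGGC
Atp5j, chr16:84834947-84835076, minus strand: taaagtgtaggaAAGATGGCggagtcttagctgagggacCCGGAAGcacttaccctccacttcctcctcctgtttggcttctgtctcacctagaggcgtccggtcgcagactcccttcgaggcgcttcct
Atp5o, chr16:91931601-91931730, minus strand: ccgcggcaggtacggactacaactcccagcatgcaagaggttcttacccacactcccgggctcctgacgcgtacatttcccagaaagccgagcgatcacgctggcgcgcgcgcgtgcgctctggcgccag
Atp5l, chr9:44920713-44920842, minus strand: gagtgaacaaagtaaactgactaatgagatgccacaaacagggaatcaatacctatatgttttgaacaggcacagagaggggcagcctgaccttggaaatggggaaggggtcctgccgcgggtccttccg
Atp5g2, chr15:102671018-102671147, minus strand: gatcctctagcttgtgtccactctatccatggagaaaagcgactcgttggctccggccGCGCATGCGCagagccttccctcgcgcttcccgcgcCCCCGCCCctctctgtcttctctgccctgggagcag
Ndufa3 holds the SP1 word upstream and the YY1 word just after its start. The Atp5j stretch shown, which belongs to 1 of 2 starts listed for the gene, holds the YY1 and ETS words, and that of the other start (chr16:84835596-84835725) holds none of the 4. The stretches of Atp5o and Atp5l hold none of the 4 words in full, which says only that these letters are not there.

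Most members were expressed in nearly every cell. Counts were found in over 95% of cells for 74 of the 84 genes. Per kilobase of gene length, Atp5b was the highest at 1103 CPM per kb (mean over groups). It encodes the catalytic beta subunit of F1 and lies at chr10:128083273-128090391 on the plus strand in GENCODE mm10. Cox4i1, the common form of complex IV subunit 4 at chr8:120668222-120674207, followed at 776 CPM per kb. The other 3 of the highest 5 were Cox6b1, Cox8a and Ndufa4, all parts of complex IV. Of all counts in the 84 genes, the 5 F1 genes took 23.9% on average over the 82 sets, the 28 accessory genes of complex I 21.7%, and the 12 widely expressed genes of complex IV 19.2%. The 8 tissue-restricted genes of complex IV took 0.123%. Cox8c had no count in any set, and mitochondrially encoded genes are not among the rows of the Smart-seq2 table. Reads of members with near-identical pseudogenes may have been lost or shared in counting, so levels between genes are uncertain for them.

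The summed level of the 84 genes differed little between sorts and days. It was 1.433% ± 0.031 of counts in Pdx1-GFP+ cells at E9.5 (SD, n = 3 sets) and 2.106% ± 0.136 in Pdx1-Cre cells at E13.5 (n = 4). All other groups with more than 1 set lay between these. The single Gcg-GFP+ set at E17.5 had 1.392%.

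The low end held hormone-rich groups as well as the earliest progenitors. Ins1-RFP+ cells averaged 1.478% ± 0.107 at E15.5 (n = 2), control explants 1.451% ± 0.112 (n = 4) and Ngn3-GFP+ cells 1.465% ± 0.076 at E17.5 (n = 4). Hormone genes took 11.7%, 8.312% and 9.784% of counts in these 3 groups, which lowers every other share, and 0.6326% in Pdx1-GFP+ cells at E9.5. The high end held Pdx1-Cre cells at E13.5, E15.5 (2.087% ± 0.077, n = 3) and E11.5 (2.025% ± 0.047, n = 2). Some sets carry an additional tissue tag in the labels, and those of mixed groups were low in their group: 1.673% and 1.636% in set 4 of Pdx1-Cre cells at E12.5 and E14.5, and 1.298% and 1.279% in set 4 of the control and U0126 explants. The part of that tag in the result was not tested.

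**Figure D1:**
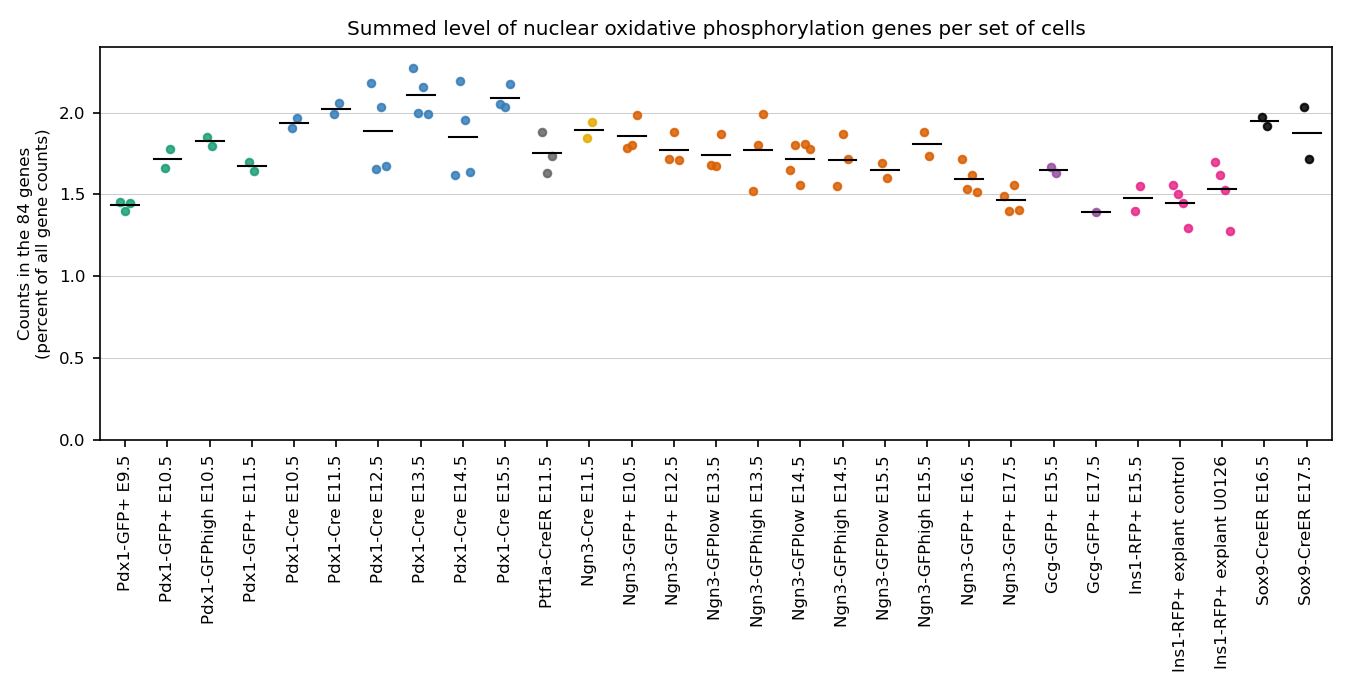
Each point is 1 set and each line a group mean, with the share of all gene counts that fell in the 84 genes (percent, axis from 0) by sort and day. Group means of sorts with more than 1 set run from 1.433% to 2.106%.

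Single members differed in how far they varied. Over the 28 groups with at least 2 sets, the highest group mean was 1.93 times the lowest for the median of the 74 widely expressed subunit genes. Cox5b, a zinc-binding subunit of complex IV, was the steadiest at 1.44 times. Ndufa1, a small membrane subunit of complex I, was the most variable at 4.06 times, from 56.4 CPM in Sox9-CreER cells at E16.5 to 229 CPM in explants in U0126. Atp5l, the g subunit of the ATP synthase membrane part, ran from 44.3 CPM in Pdx1-GFP+ cells at E9.5 to 170 CPM in Ngn3-GFPhigh cells at E15.5.

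Across the 82 sets, which share groups and depth, the log2 level of a member and the sum of the others had a median Pearson r of 0.67, given as a description. Cox7c and Ndufa5 followed the sum most closely (0.88 each). Ndufa1 (-0.33), Ndufv3 (-0.18), Atp5l (-0.08) and Ndufb11 (0.05) did not follow it. Ndufa1 and Ndufb11 are both X-linked subunits of complex I, at chrX:37187588-37191163 and chrX:20615326-20617619, and the labels used here give no sex.

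The comparison with the most called members was between late Ngn3-GFP+ and Sox9-CreER cells. Ngn3-GFP+ cells at E16.5 and E17.5 (8 sets), an endocrine lineage, were compared with Sox9-CreER cells of the same days (4 sets). Each sort and day was a group of its own, and the means over both days were compared. Of 82 members tested, 32 were lower and 3 higher in the Ngn3-GFP+ cells at an adjusted p under 0.05 (edgeR's quasi-likelihood test, Benjamini-Hochberg over all genes). This is 42.7% of the members, against 25% of all genes tested. Among all genes 11.4% were lower and 13.6% higher. The median log2 fold change was -0.31 over members and 0.17 over all genes, so the members lay below a typical gene by more than their own median. The summed level was 0.802 times that of the Sox9-CreER cells, with sets from 1.402% through a median of 1.527% to 1.717% against 1.972% and 1.919% at E16.5 and 2.033% and 1.715% at E17.5. Only the Sox9-CreER set 2 at E17.5 fell to the level of an Ngn3-GFP+ set.

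**Figure D2:**
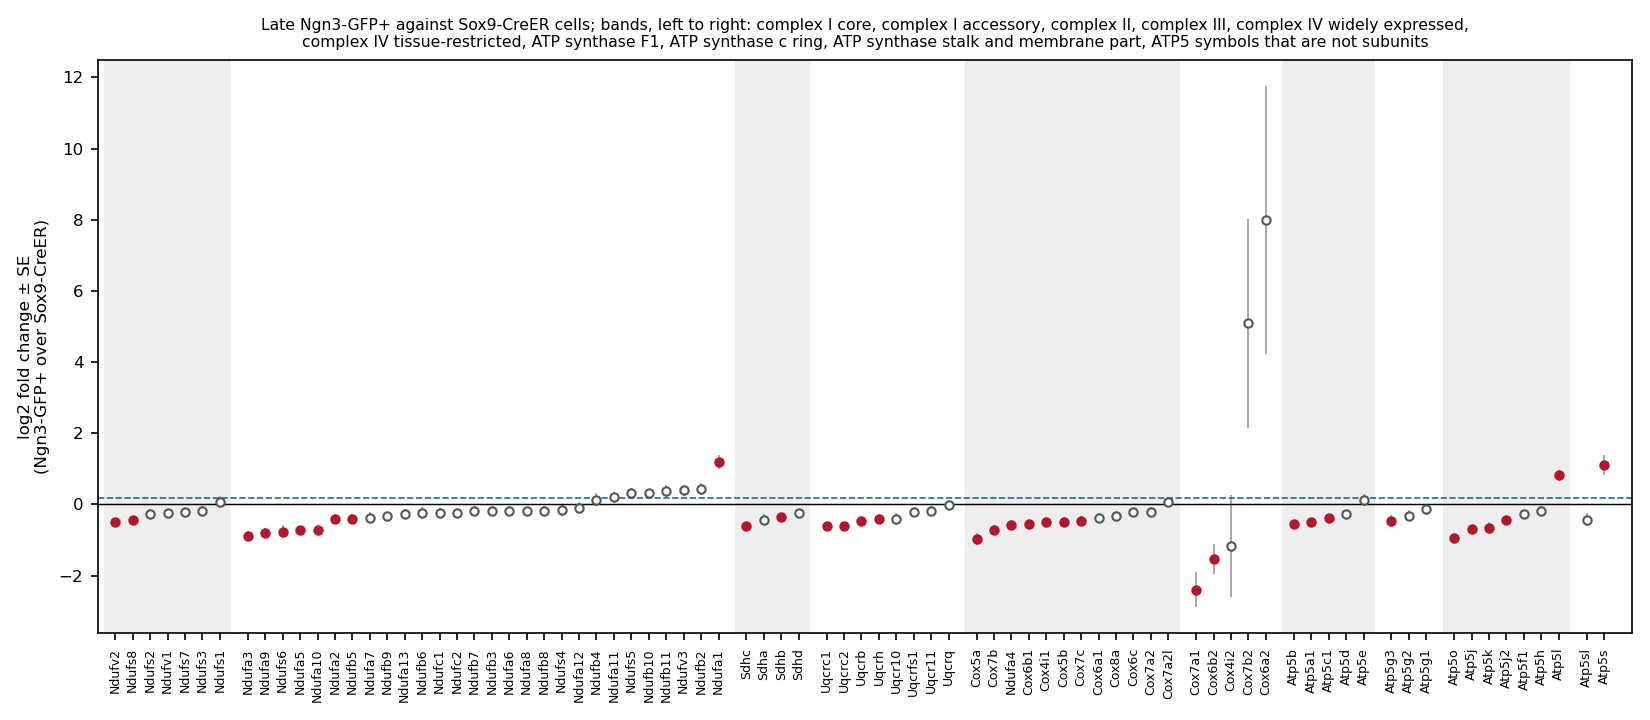
The log2 fold change of 81 members between late Ngn3-GFP+ (8 sets) and Sox9-CreER cells (4 sets), with its standard error, by complex. Filled red points passed the test, the dashed line marks the median of all genes at 0.17, and most points lie below 0. Ndufa4l2 is left out because no late Ngn3-GFP+ set has a count.

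Every complex had members that were lower. In complex I, 2 of 7 core and 7 of 28 accessory genes were lower and 1 accessory gene was higher. The counts were 2 of 4 in complex II, 4 of 8 in complex III and 7 of 12 widely expressed genes in complex IV. In ATP synthase 3 of 5 F1 genes, 1 of 3 c ring genes and 4 of 7 stalk and membrane genes were lower, with 1 of the last higher.

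Atp5o gave the smallest p of the members. It encodes OSCP, which ties the F1 head to the stalk. Its levels were 175, 166, 186 and 197 CPM in Ngn3-GFP+ cells at E16.5 and 161, 166, 153 and 128 CPM at E17.5. In Sox9-CreER cells they were 331 and 318 CPM, then 308 and 280 CPM. All 8 Ngn3-GFP+ sets lay below all 4 Sox9-CreER sets of either day (log2 fold change -0.95, SE 0.11, edgeR adjusted p = 3e-05).

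Ndufa3, an accessory subunit of complex I, showed the same order. It had 85.8, 99.3, 114 and 120 CPM, then 86.8, 68.7, 98.3 and 94.6 CPM, in the Ngn3-GFP+ sets of E16.5 and E17.5. The Sox9-CreER sets had 157 and 164 CPM, then 197 and 159 CPM. The groups did not overlap (log2 fold change -0.88, SE 0.13, edgeR adjusted p = 0.000194).

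Cox5a, a matrix-side subunit of complex IV, was also lower. The Ngn3-GFP+ sets ran from 39.7 through a median of 55.03 to 64.3 CPM. The Sox9-CreER sets had 117, 92.0, 130 and 68.5 CPM, so the groups came close at 1 set of E17.5 without overlap (log2 fold change -0.97, SE 0.18, edgeR adjusted p = 0.00114).

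Further called members, named after their values were seen, had groups that did not overlap. They were Atp5j (coupling factor 6, log2 fold change -0.68), Ndufa9 (-0.79), Ndufa10 (-0.71), Ndufa5 (-0.72), Ndufv2 (a core subunit of the NADH-binding module, -0.50), Uqcrc1 and Uqcrc2 (the large core proteins of complex III, -0.61 and -0.60), Cox7b (-0.71) and Sdhc (a membrane anchor of complex II, -0.60). The share of all genes without overlap was not counted, so this is a description only. Among the 5 genes of highest level, Atp5b was lower, with 1454 to 2037 CPM against 2028 to 2974 CPM (log2 fold change -0.54). Cox4i1 (-0.50), Cox6b1 (-0.56) and Ndufa4 (-0.57) were lower too, and Cox8a was -0.31 with an adjusted p of 0.104 by edgeR. The c ring genes share 1 mature protein and differ in their import signals. Atp5g3 just passed (log2 fold change -0.46, edgeR adjusted p = 0.0487), while Atp5g1 (-0.14) and Atp5g2 (-0.31) did not pass. The Atp5g3 call was lost in 10 of the 12 fits without 1 set.

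A few members ran against the rest. Ndufa1 had 174, 213, 150 and 122 CPM at E16.5 and 129, 172, 179 and 181 CPM at E17.5 in Ngn3-GFP+ cells. In Sox9-CreER cells it had 50.95 and 61.88 CPM, then 107 and 65.9 CPM. Every Ngn3-GFP+ set was above every Sox9-CreER set (log2 fold change 1.20, SE 0.20, edgeR adjusted p = 0.000586).

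Atp5l was higher in the same way. It had 130, 97.5, 103 and 77.4 CPM, then 113, 99.2, 112 and 99.7 CPM, in Ngn3-GFP+ cells. The Sox9-CreER sets had 51.7, 52.9, 72.0 and 50.4 CPM, again without overlap (log2 fold change 0.82, SE 0.15, edgeR adjusted p = 0.00109). Atp5s, coupling factor B, which is not a fixed subunit, was the third (log2 fold change 1.12, SE 0.28, edgeR adjusted p = 0.00923), and its groups overlapped. Ndufb2 and Ndufb11, 2 further accessory subunits of the membrane arm, had values of 0.43 and 0.36 and did not pass.

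The Sox9-CreER sets set the limits of this comparison. With E16.5 alone 20 members passed (3 higher, 17 lower) and with E17.5 alone 16 (3 higher, 13 lower). Without Sox9-CreER set 1 or 2 of E16.5 or set 1 of E17.5 the counts were 14, 19 and 20, and the replicate block gave 3. For no member did a difference in fold change between the days pass (smallest adjusted p = 0.221, edgeR, with 6 members at an unadjusted p under 0.05 and 103 of all genes called). With so few Sox9-CreER sets per day, this does not show that the days were alike. Hormone genes took 3.39% to 19.8% of counts in the Ngn3-GFP+ sets, and without hormone and enzyme genes the summed ratio was 0.863.

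**Figure D3:**
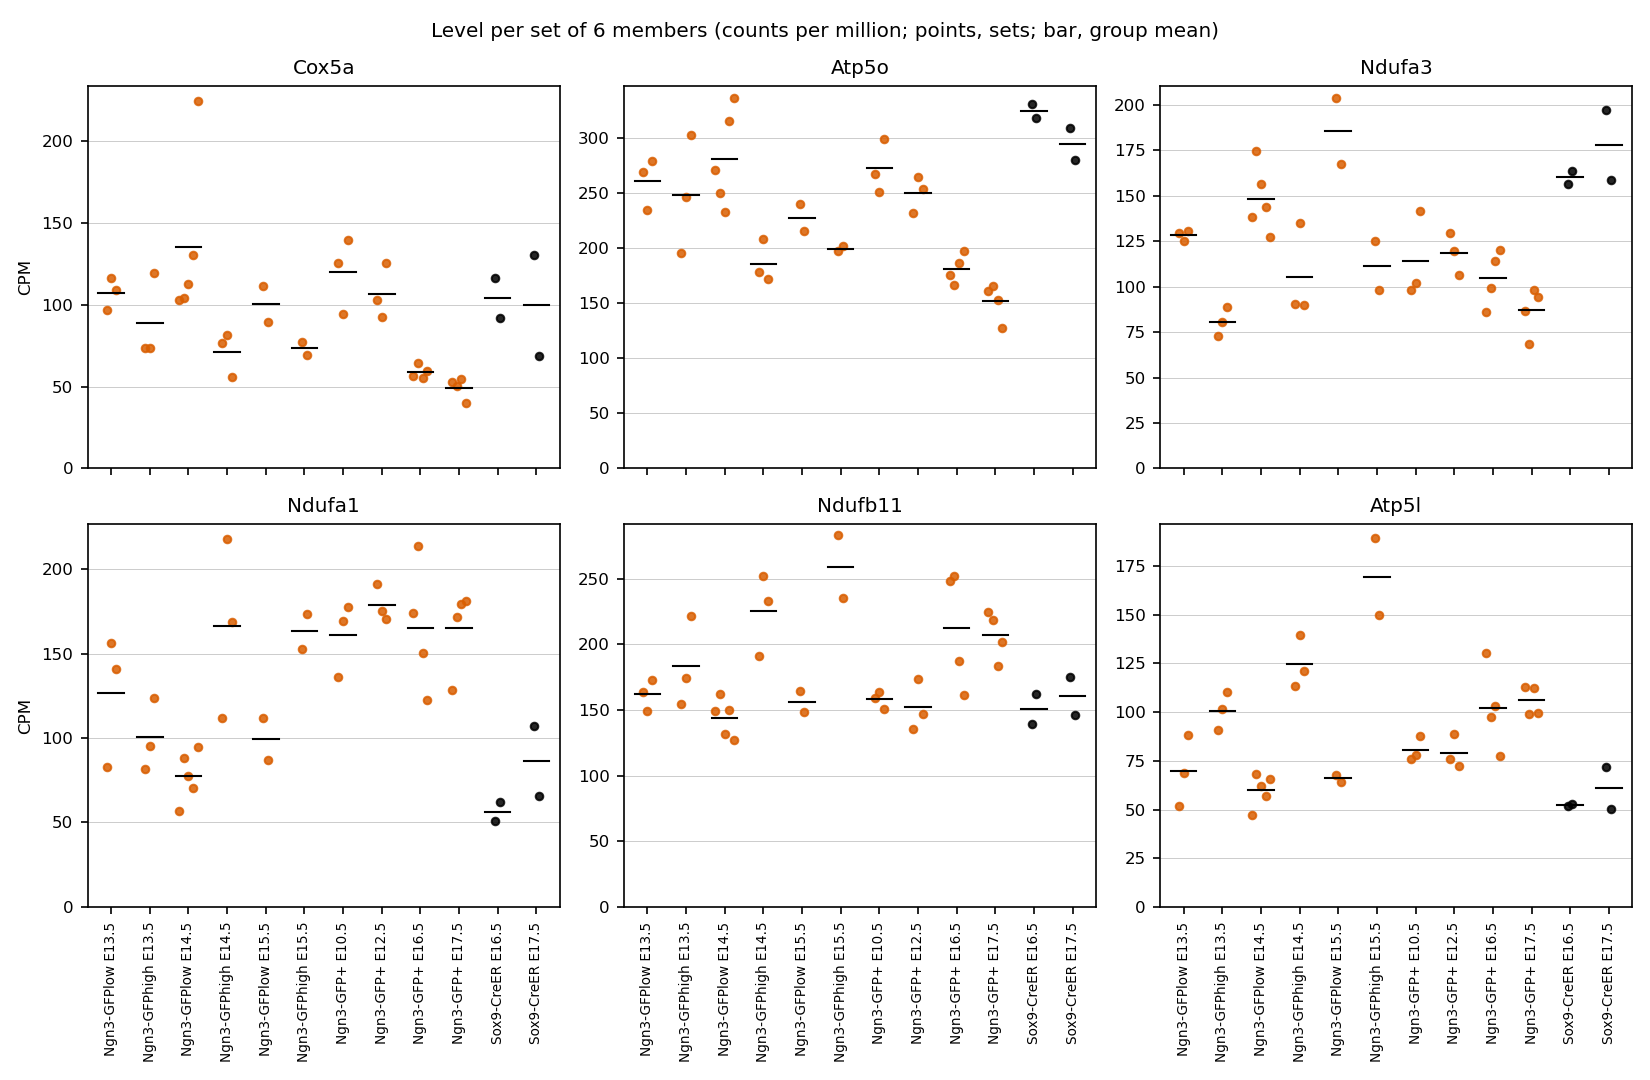
The level (CPM, axis from 0) of Cox5a, Atp5o, Ndufa3, Ndufa1, Ndufb11 and Atp5l in every set by sort and day, with group means as lines. The first 3 are lower, and Ndufa1 and Atp5l higher, in late Ngn3-GFP+ than in Sox9-CreER sets.

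Ngn3-GFP+ cells also changed between their early and late days. The early sort (E10.5 and E12.5, 6 sets) had Gcg at 26840 and 24330 CPM and Ins1 at 199.5 and 174.7 CPM. The late sort (the same 8 sets as above) had Gcg at 15400 and 18430 CPM and Ins1 at 14130 and 18370 CPM. In the late cells 11 of 82 members were lower and 2 higher, which is 15.9% of the members against 19.7% of all genes tested, so the share called was not above the background (8.29% of all genes higher and 11.4% lower). The median log2 fold change was -0.13 over members and -0.03 over all genes. The summed level was 0.844 times the early one.

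Cox5a and Atp5o led the members that were lower. Cox5a had 125.5, 94.27 and 139.7 CPM at E10.5 and 103, 92.2 and 125 CPM at E12.5, against the late range of 39.7 to 64.3 CPM. All late sets lay below all early sets (log2 fold change -0.99, SE 0.16, edgeR adjusted p = 0.000785). Atp5o had 267, 251 and 299 CPM, then 232, 264 and 254 CPM, against a late range of 128 to 197 CPM (log2 fold change -0.58, SE 0.10, edgeR adjusted p = 0.00114). Ndufa9 (-0.67), Ndufa10 (-0.59), Cox4i1 (-0.53) and Ndufa5 (-0.44) were lower without overlap as well. In complex II 3 genes were lower, Sdhb (-0.29), Sdhc (-0.41) and Sdhd (-0.37), with overlapping sets.

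The members that were higher late were Ndufb11 and Atp5l. Ndufb11 had 160, 164 and 151 CPM at E10.5, 136, 173 and 147 CPM at E12.5, 249, 252, 187 and 162 CPM at E16.5 and 225, 219, 183 and 202 CPM at E17.5. The early and late sets overlapped only at the lowest late set (log2 fold change 0.51, SE 0.14, edgeR adjusted p = 0.0187). Atp5l had 76.1, 77.8 and 88.0 CPM, then 76.0, 89.0 and 72.4 CPM early (log2 fold change 0.45, SE 0.13, edgeR adjusted p = 0.0228). The Ndufb11 call was lost without set 1 of E12.5 and without the cells that carry markers of other types, and the Atp5l call without set 1 or 3 of E12.5 and by limma. Both were lost with E10.5 or E12.5 alone as the early group. Ndufa1 was alike in both, with medians of 172.7 CPM early and 172.8 CPM late. The late sets are those of the comparison with Sox9-CreER cells, so the 2 comparisons are not independent. Leukocyte markers took 0.141% and 0.5135% of counts in the early groups and 0.0223% or less in the late ones. Without the cells that carry such markers 8 members passed (2 higher, 6 lower), and Ndufb11 was not among them.

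Between E13.5 and E15.5 the Ngn3-GFP cells were split by reporter level, and Neurog3 averaged 1063 CPM in high and 122.5 CPM in low cells at E13.5. In Ngn3-GFPhigh against Ngn3-GFPlow cells the members called were 1 of 81 at E13.5, 8 of 81 at E14.5 and 3 of 81 at E15.5. The shares were 1.23%, 9.88% and 3.7% of the members, against 6.22%, 15% and 8.98% of all genes tested, each below the background. By direction, the backgrounds were 1.61% higher and 4.61% lower at E13.5, 6.04% and 9.01% at E14.5, and 3.4% and 5.58% at E15.5, and the members split into 0 and 1, 3 and 5, and 1 and 2. The summed level of the high cells was 1.02, 0.996 and 1.1 times that of the low cells on the 3 days.

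Ndufa3 passed the test as lower in the high cells on each of the 3 days, but few of these calls held under other settings. At E13.5 it had 72.9, 80.4 and 89.0 CPM in high and 129, 125 and 131 CPM in low cells (log2 fold change -0.79, SE 0.20, edgeR adjusted p = 0.0284). At E14.5 the values were 90.3, 135 and 90.1 CPM against 138, 174, 156, 144 and 128 CPM (-0.66, SE 0.18, adjusted p = 0.0217), and at E15.5 they were 125 and 98.0 CPM against 204 and 168 CPM (-0.85, SE 0.24, adjusted p = 0.0413). The groups overlapped at E14.5 and not on the other days.

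The call at E13.5 was lost in 5 of the 6 fits without 1 set, that is without any set but set 1 of the low cells. At E14.5 it was lost without set 1 or 3 of the high cells or set 5 of the low cells, and at E15.5 without any 1 of the 4 sets. Of 6 other alternatives, 3, 4 and 5 lost the call on the 3 days, among them each time the fit with no filter on low counts, removal of cells with other-type markers, and the replicate block. Leukocyte markers took 0.5899%, 0.5415% and 0.3307% of counts in the low cells and at most 0.00427% in the high cells.

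Atp5l was higher in the high cells. Its levels at E14.5 were 114, 140 and 121 CPM in high and 47.1, 68.5, 61.9, 56.8 and 65.8 CPM in low cells (log2 fold change 0.87, SE 0.22, edgeR adjusted p = 0.0139). At E15.5 they were 189 and 150 CPM against 67.8 and 64.2 CPM (log2 fold change 1.24, SE 0.30, edgeR adjusted p = 0.0210), and this call was lost without any 1 of the 4 sets. At E13.5 the values were 90.6, 101 and 110 CPM against 52.1, 68.8 and 88.1 CPM, without overlap, and the test was not passed.

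At E14.5 the other members called included Ndufa1 and Ndufb11, which were higher, and Cox5a, Atp5o, Sdha and Ndufs6, which were lower. Ndufa1 had 112, 218 and 169 CPM in high and 56.6, 87.9, 77.3, 70.4 and 94.4 CPM in low cells (log2 fold change 0.91, SE 0.28, edgeR adjusted p = 0.0422). Atp5o had 178, 208 and 172 CPM against 271, 250, 233, 315 and 336 CPM (log2 fold change -0.78, SE 0.19, edgeR adjusted p = 0.0126). Neither gene's groups overlapped.

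Cox5a had 76.5, 81.7 and 55.8 CPM against 103, 104, 113, 130 and 224 CPM, where set 5 of the low cells stood far above the others (log2 fold change -1.14, SE 0.32, edgeR adjusted p = 0.0259). Sdha, the flavoprotein of complex II, is named after its values were seen, and had 310, 280 and 322 CPM against 396.0, 376.9, 363.8, 389.0 and 399.2 CPM (log2 fold change -0.53, SE 0.15, edgeR adjusted p = 0.0300). Without cells carrying other-type markers 2 members passed at E14.5, 1 in each direction. Without set 1, 2 or 3 of the high cells 3, 2 and 1 members passed, and without set 5 of the low cells 4. For no member did a change of the high-to-low difference between days pass (smallest adjusted p = 0.0723, edgeR, with 3, 7 and 1 members at an unadjusted p under 0.05). The same tests called 4, 23 and 3 of all 18989 genes, so this does not show that the days were alike.

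At E15.5 the remaining call was Cox4i2, the restricted form of subunit 4, listed at 0 in both high sets and at 1.36 and 3.04 CPM in the low sets (edgeR adjusted p = 0.00775). Against a floor of 3 counts over the high group, Cox4i2 was at least 35.3-fold lower there. The 3 calls at E15.5 fell to 0 without either high set and to 1 without either low set.

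Hormone-positive cells at E15.5 gave no called member. Ins1-RFP+ and Gcg-GFP+ cells (2 sets each) were compared with each other and each with the same 2 Ngn3-GFPhigh sets. By edgeR 0 of 81 members passed in each of the 3 comparisons, where 0.693%, 0.0171% and 0.0284% of all genes passed (0.335% higher and 0.358% lower in the first, and only lower genes in the others). At an unadjusted p under 0.05 there were 8, 9 and 14 members (9.88%, 11.1% and 17.3%), against 13.3%, 9.26% and 10% of all genes. DESeq2 called 2, 2 and 5 members among 1124, 592 and 607 genes in all, and limma 0 among 410, 54 and 90. The member with the smallest p between the hormone-positive sorts was Uqcrq, a small subunit of complex III, at 134.1 ± 26.7 CPM in Ins1-RFP+ and 76.95 ± 3.26 CPM in Gcg-GFP+ cells (SD, n = 2 sets each, log2 fold change 0.95, edgeR adjusted p = 0.0988). Against the high cells, Uqcrc2 was -0.60 in Ins1-RFP+ cells (edgeR adjusted p = 0.285) and Atp5l -0.88 in Gcg-GFP+ cells (adjusted p = 0.202). The summed level of Ins1-RFP+ cells was 0.816 times that of the high cells, and 0.897 times once hormone and enzyme genes were set aside.

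Along the Pdx1-Cre lineages from E10.5 to E15.5 (19 sets), 2 of 80 members rose per day and 0 fell, against 5.34% of all genes called (3.54% rising and 1.8% falling). The median slope was 0.05 log2 per day over members and 0.01 over all genes, and 82.5% of member slopes were positive against 51.3% of all. Ndufb11 had 145 and 132 CPM at E10.5, 169.3 and 155.3 at E11.5, 171, 143, 157 and 135 at E12.5, 218, 243, 195 and 213 at E13.5, 264, 198, 218 and 158 at E14.5, and 189, 203 and 205 at E15.5. The values were higher from E13.5 on, and overlapped the earlier days only through 1 set of E14.5 (slope 0.16 log2 per day, SE 0.04, edgeR adjusted p = 0.0143). The call held without any 1 set.

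Ndufb9, a LYR-motif accessory subunit, was the other, with 243 and 214 CPM at E10.5 and 384, 362 and 379 CPM at E15.5, the highest of all days (slope 0.15 log2 per day, SE 0.04, edgeR adjusted p = 0.0339). That call was lost without set 2 of E10.5 or any set of E15.5. The days also differ in makeup, with digestive enzyme genes at 0.02275% of counts at E10.5 and 4.483% at E15.5, and the part of this in the slopes was not tested. Of the c ring genes, Atp5g1 had a slope of 0.15 (edgeR adjusted p = 0.12), at 166.7 ± 23.6 CPM at E10.5 (SD, n = 2) and 257.3 ± 18.95 CPM at E15.5 (n = 3).

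The earliest comparison, Pdx1-GFP+ cells at E11.5 (2 sets) against E9.5 (3 sets), had 0 of 80 members called, against 0.048% of all genes (0.036% higher and 0.012% lower). The members nonetheless had a median log2 fold change of 0.25 against -0.01 for all genes, and 93.8% of them were positive against 49.2%. By edgeR 15 members had an unadjusted p under 0.05 (18.8%, against 9.75% of all genes). DESeq2 called 2 members among 469 genes and limma 0 among 149. Ndufs8, an iron-sulfur core subunit, was at 108.7 ± 5.4 CPM at E11.5 and 71.22 ± 4.98 CPM at E9.5 (SD, log2 fold change 0.64, edgeR adjusted p = 0.232), and Cox8a was at 384.5 ± 17.6 and 277.6 ± 3.9 CPM (0.49, adjusted p = 0.25). The 3 c ring genes had values of 0.52, 0.59 and 0.33 for Atp5g1, Atp5g2 and Atp5g3. The summed level was 1.433% ± 0.031 of counts at E9.5 and 1.673% ± 0.039 at E11.5, a ratio of 1.17, with no test of the sum.

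Ngn3-Cre against Pdx1-Cre cells at E11.5 (2 sets each) had 0 of 80 members called, 0 at an unadjusted p under 0.05 and 0 by DESeq2 or limma, with 0% of all genes called by edgeR. The smallest p values belonged to Atp5k, the e subunit of the ATP synthase membrane part, and Atp5b, both with an adjusted p of 0.975. The summed ratio was 0.936.

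In the explants, U0126 gave no called member. Of 78 members tested 0 passed, with 0% of all genes called by edgeR, 1 member at an unadjusted p under 0.05, and 0 members by DESeq2 or limma. The median log2 fold change was 0.09 over members, 78.2% of them positive, and 0.00 over all genes. Ndufs4, an accessory subunit at the base of the peripheral arm, was at 146.2 ± 41.5 CPM in U0126 and 105.3 ± 18.3 CPM in control (SD, n = 4 sets each, log2 fold change 0.49, edgeR adjusted p = 1). The summed level was 1.531% ± 0.182 and 1.451% ± 0.112, a difference within the spread of either group. By set number the U0126 sets had 1.7%, 1.616%, 1.53% and 1.279%, and the control sets 1.556%, 1.503%, 1.446% and 1.298%. Set 4, which carries the tissue tag, was the lowest in both, and the other 3 U0126 sets lay above the control set of the same number.

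The tissue-restricted forms of complex IV were low in level and differed in how many cells had a count. Among the 1989 cells without markers of other types the share was 41.3% for Cox6b2, 39.5% for Cox7a1 and 16% for Cox4i2. Cox4i2, known from lung and smooth muscle and induced by low oxygen, had counts in 13 of 27 Pdx1-GFPhigh cells at E10.5 (48.1%, exact 95% binomial interval 28.7% to 68.1%) and in 31.2%, 40% and 35.1% of Pdx1-Cre cells at E10.5, E11.5 and E12.5. It had counts in 33.9% of Ngn3-GFP+ cells at E10.5, 24.8% at E12.5, 2.31% at E16.5 and 3.2% at E17.5. In sets this was 14.7, 10.3, 5.13, 4.87, 3.07 and 3.48 CPM early, and 0 to 2.06 CPM in the 8 late sets with a median of 0.0728. The groups did not overlap, and the adjusted p was 0.0604 by edgeR. None of 51 Ngn3-GFPhigh and none of 39 Ins1-RFP+ cells at E15.5 had a count, which allows shares of up to 5.88% and 7.69%. Intervals and limits cover counting error only.

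Cox7a1, the heart and muscle form of subunit 7a, was highest in Sox9-CreER cells at E16.5. Its levels were 23.9 and 26.2 CPM at E16.5 and 12.8 and 10.0 CPM at E17.5. The late Ngn3-GFP+ sets had 0.435 to 5.52 CPM, with a median of 3.59 CPM and no overlap (log2 fold change -2.40, SE 0.49, edgeR adjusted p = 0.0023). At E16.5, 43 of 55 Sox9-CreER cells (78.2%) had a count.

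Cox6b2, the testis form of subunit 6b, had 9.05 and 11.6 CPM at E16.5 and 30.1 and 44.3 CPM at E17.5 in the same cells, and 1.62 to 15.1 CPM in the late Ngn3-GFP+ sets. At E17.5, 28 of 34 Sox9-CreER cells (82.4%) had a count. It was called (log2 fold change -1.54, SE 0.42, edgeR adjusted p = 0.015) with overlap, and the call was lost with E16.5 alone and without set 1 or 2 of Sox9-CreER E16.5 or set 2 of E17.5.

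Ndufa4l2, a hypoxia-induced relative of Ndufa4, had counts in 36 of 113 Pdx1-GFP+ cells at E9.5 (31.9%), at 17.46, 5.067 and 8.083 CPM in their sets. In Pdx1-Cre cells it reached 26.5 CPM in single sets through few cells, 1 of which held 703 CPM at E14.5. None of the 255 late Ngn3-GFP+ cells had a count, which allows a share of up to 1.18%. In pooled counts, the Sox9-CreER cells lay 62.7-fold above a floor of 3 counts over that group, and held 42 counts in all. These came from 3 of 55 cells at E16.5 and none of 34 at E17.5. Set 1 of E16.5 held 33 of them, and without it the pooled bound was 18.9-fold. With counts in so few Sox9-CreER cells, the bound describes pooled reads, and a fold of this size is not shown between cells. Cox6a2, a muscle form, was seen in few cells and reached 16.1 CPM in set 1 of Ngn3-GFP+ E16.5 alone. Cox7b2 and Cox8b stayed near 0.

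**Figure D4:**
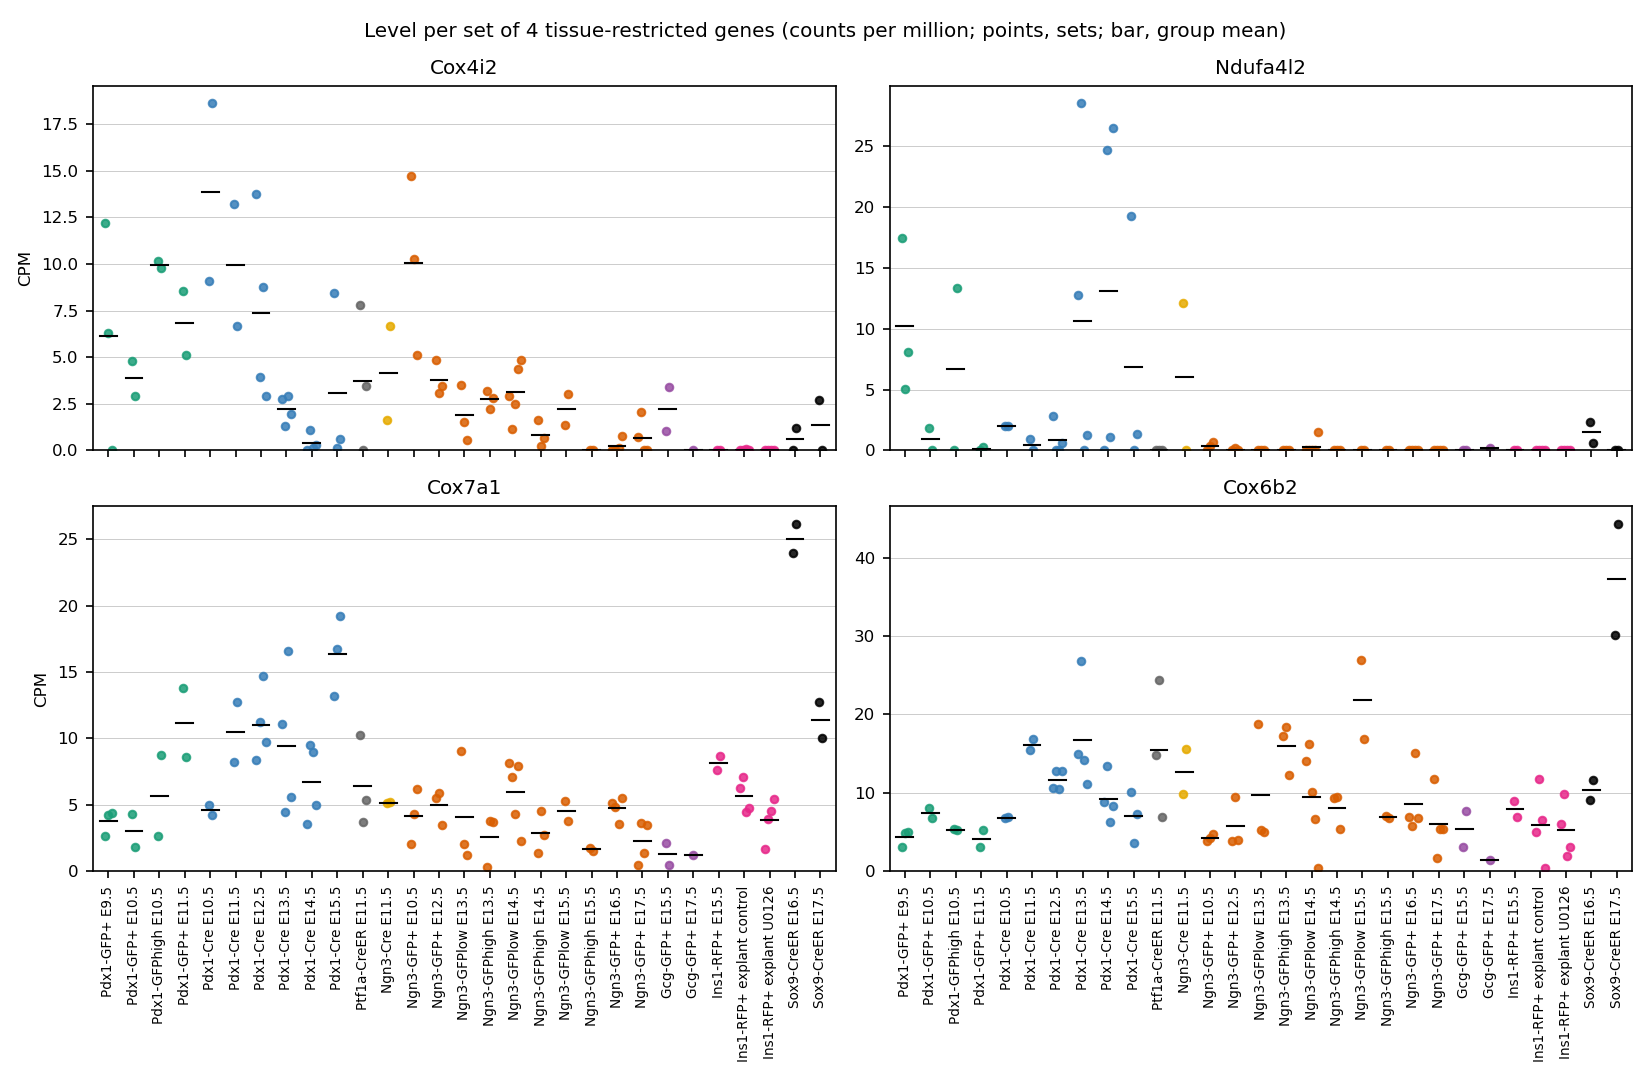
The level (CPM, axis from 0) of Cox4i2, Ndufa4l2, Cox7a1 and Cox6b2 in every set by sort and day, with group means as lines. Cox4i2 is higher in early than in late Ngn3-GFP+ sets, and Cox7a1 and Cox6b2 are highest in Sox9-CreER sets.

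The 2 droplet libraries of E14.5 pancreas stood apart and were read separately. Library 1 held 3402 cells with a median of 9238 molecules (UMIs), library 2 held 6575 cells with 4901, and 37 barcodes occurred in both. Mitochondrially encoded genes took 1.765% to 3.493% of UMIs in the named classes of library 1 and 3.657% to 6.248% in library 2. Cells were clustered without the members, and classes were named from markers, with 1833 and 2052 cells left unnamed. No class was tested, since each library is 1 sample. Intervals are exact Poisson intervals at 95% and cover counting error only.

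Members took 3.298% (mesothelium-like) to 3.926% of UMIs (neural and glial-like) in library 1 and 2.261% (mesothelium-like) to 3.005% (beta-like) in library 2, leaving out the erythroid-like classes at 2.421% and 1.819% and the unnamed clusters. The erythroid-like class of library 1 was at 1.297% with a looser filter on cells. Unnamed clusters ran from 3.186% to 4.142% in library 1, where the highest was cluster 7, led by Gcg, Pyy, Ghrl and Ins2, and from 2.275% to 2.518% in library 2. Within library 2 the endocrine path had 2.591% in trunk and duct-like, 2.488% in endocrine progenitor-like, 2.972% in late endocrine precursor-like, 2.928% in alpha-like and 3.005% in beta-like cells. With finer clusters trunk and duct-like cells had 2.701% and endocrine progenitor-like cells 2.727%, so the order of these classes changed with the clusters. In this library the hormone-rich classes lay above the trunk and duct-like class. In Smart-seq2 the late Ngn3-GFP+ cells lay below the Sox9-CreER cells of E16.5 and E17.5, in other cells, days and chemistry. At E15.5, where no Sox9-CreER sort was taken, Gcg-GFP+ and Ngn3-GFPlow cells were at 1.648% and 1.647% and Ngn3-GFPhigh cells at 1.81%. Ins1-RFP+ cells of that day were at 1.478%, below these sorts, whereas the beta-like class was the highest of library 2. The platforms were not compared by a test.

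The members that ran against the rest in Smart-seq2 were also unequal in library 2. Atp5l had 4.445 UMIs per 10000 (interval 4.228 to 4.67) in trunk and duct-like, 6.278 in endocrine progenitor-like, 10.94 in late endocrine precursor-like, 9.9 in alpha-like and 11.39 (10.67 to 12.14) in beta-like cells. Ndufa1 had 0.4901, 0.6771, 0.7635, 1.621 and 1.516 in the same order. Ndufb11 had 3.335, 3.59, 5.622, 4.972 and 5.762. All 3 genes were higher in alpha-like and beta-like than in trunk and duct-like cells. Atp5o went from 6.284 in trunk and duct-like to 4.92, 4.914, 5.117 and 4.913. Cox5a had 0.4732, 0.4271, 0.2637, 0.298 and 0.4124, and Ndufa3 2.256, 1.889, 1.416, 2.152 and 1.892, so these 2 had no single order along the path. Library 1 had no class named trunk and duct-like, alpha-like or beta-like at the same settings. At these settings its unnamed cluster 10, with Spp1 and Sox9 among its top genes, had a member share of 3.828%, and its unnamed cluster 7, led by Gcg, 4.142%. With coarser clusters its trunk and duct-like class had 3.826% and its alpha-like class 3.877%, and with doublets kept the former had 3.832%. With finer clusters an alpha-like class of 35 cells had 3.352%, with 7.214% of its UMIs mitochondrially encoded. Apart from this small class, the alpha-like or Gcg-led cells of library 1 lay above its trunk and duct-like cells in member share, as in library 2. The classes between them did not keep the order of library 2. In library 1 endocrine progenitor-like cells (3.886%) lay above cluster 10 and late endocrine precursor-like cells (3.7%) below it. Levels of single members in library 1 are not given here.

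**Figure D5:**
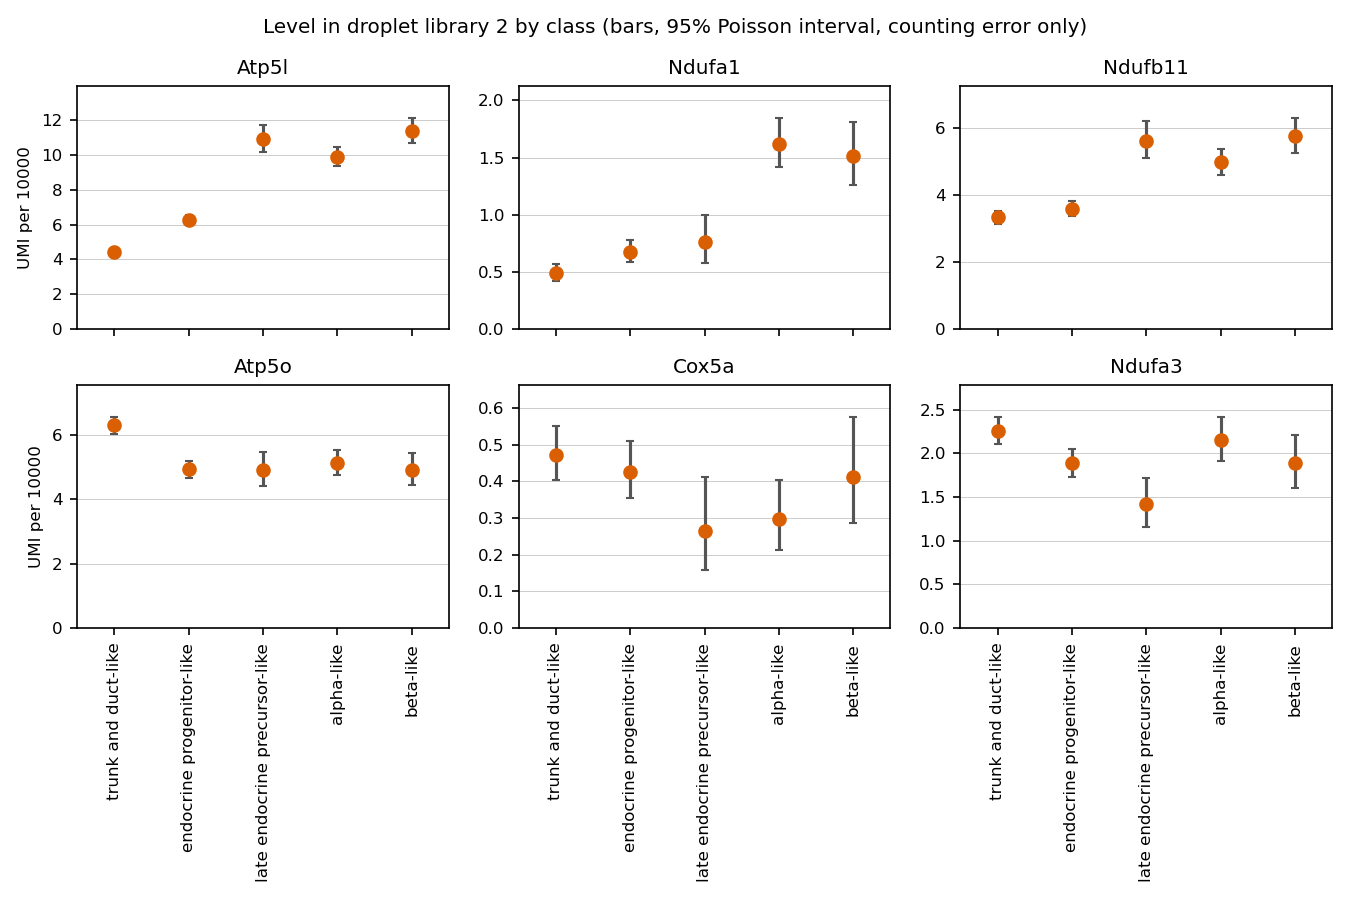
The level of 6 members in UMIs per 10000 (axis from 0) in 5 classes of droplet library 2, with bars for the 95% Poisson interval of counting error. Atp5l is at 4.445 in trunk and duct-like and 11.39 in beta-like cells, and the 2 intervals do not meet.

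Ndufa4l2 and Cox4i2 were highest outside the epithelium. In library 2 the pericyte and smooth muscle-like class (237 cells) had 8.231 (interval 7.75 to 8.734) and 3.359 (3.054 to 3.685) UMIs per 10000, with a UMI in 90.3% and 67.09% of cells. The trunk and duct-like class had 0.002817 and 0.1296, with a UMI in 0.2364% and 9.693% of its cells. The class of that name in library 1 (127 cells), led by the contractile genes Acta2, Actg2 and Mylk, had 0.0937 and 0.05111. It left out an unnamed cluster of 49 cells with the pericyte markers Kcnj8 and Abcc9 among its top genes. The classes of the libraries thus need not hold the same cells, and library 1 is not read as showing the opposite. Neural and glial-like cells had 1.949 and 2.803 UMIs per 10000 of Ndufa4l2 in the libraries, and mesenchyme-like cells 1.245 and 0.7543.

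Other genes of mitochondrial metabolism and of glycolysis were counted in the same fits. The shares of all genes called were 11.4% lower and 13.6% higher (25% in all) for late Ngn3-GFP+ against Sox9-CreER cells, 11.4% and 8.29% for late against early, and 9.01% and 6.04% for high against low at E14.5. Between late Ngn3-GFP+ and Sox9-CreER cells, 35 of 76 mitochondrial ribosomal proteins were lower (46.1%) and 3 higher (median log2 fold change -0.46), among them Mrpl12 (-1.39) and Mrps25 (-1.58). Of 18 glycolysis genes 12 were lower (66.7%) and 2 higher, with lactate dehydrogenase Ldha at 93.2 ± 74.6 CPM against 1054 ± 295 CPM (SD, n = 8 and 4 sets, log2 fold change -3.56). Of 18 genes of the TCA cycle and pyruvate dehydrogenase 5 were lower and 1 higher (33.3% called), with Suclg2 (-1.70) and Idh2 (-1.22) lower. Of 44 assembly factors 8 were lower and 4 higher (27.3%, near the share of all genes), and the complex I factors Ndufaf2 (-1.27) and Ndufaf3 (1.30) went opposite ways. Among 16 biogenesis regulators 4 were lower (25%, against 11.4% of all genes lower) and 0 higher. Those lower included the helicase gene Peo1 (-1.27) and the coactivator Ppargc1a, at 0.939 ± 1.716 against 18.7 ± 12.9 CPM.

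Late against early Ngn3-GFP+ cells gave 24 of 76 mitochondrial ribosomal proteins lower (31.6%) and 0 higher, 13 of 18 glycolysis genes lower (72.2%) and 2 higher, and Ldha at a log2 fold change of -3.67. Ngn3-GFPhigh against low cells at E14.5 gave 16 of 77 (20.8%) and 9 of 18 (50%) lower, with 1 higher in each list. In both comparisons the glycolysis medians (-1.13 and -0.84) lay further from 0 than those of the members (-0.13 and -0.14). Outside the symbol rule, 2 of 6 subunit genes were lower in late Ngn3-GFP+ than in Sox9-CreER cells, namely Cyc1 (cytochrome c1, -0.65) and 2010107E04Rik (-0.73).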

How the data were processed

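Smart-seq2 single-cell RNA-seq covered 2195 cells, and a droplet platform gave 2 libraries of E14.5 pancreas. Per the submitters' processing notes, reads were handled with TopHat2 2.1.0, Bowtie2, HTSeq 0.6.0 and Cell Ranger 2.0.2 on mm10. Per the labels' protocols, no molecular identifiers were used in Smart-seq2. The authors deposited gene counts per cell, and the droplet files hold UMI counts per cell. Strand settings are not given in the sources used here.

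Counts were summed per set and 92 spike-in rows left out. CPM were computed from these sums. edgeR 4.0.16 quasi-likelihood tests (TMM, low-count filter, R 4.3.3) were fitted on all genes and adjusted by Benjamini-Hochberg, with a threshold of 0.05, in 12 comparisons. Limma 3.58.1 and DESeq2 1.42.0, other scaling, no filter, removal of cells with other-type markers, and removal of each set were tried as alternatives. Scripts were tested on simulated data, with log2 changes of 1 put into 50 random genes per fit. Of these, 0% were called for Ngn3-GFPhigh against low cells at E13.5, Ins1-RFP+ against Gcg-GFP+ and Ngn3-Cre against Pdx1-Cre cells. The share was 2% for Pdx1-GFP+ days, 10% for U0126, 20% for late against early cells, and 16% for Pdx1-Cre slopes of 0.25. An absence of calls in these comparisons thus does not show that levels were alike. Droplet barcodes were kept from 1000 genes up and to 10% mitochondrial UMIs, called doublets (4 and 189) removed, and cells clustered with scanpy 1.11.5 without the 84 genes. Named genes were, per comparison, the 4 called members with the largest change in each direction, or the 2 of smallest p where none passed, plus the restricted complex IV and c ring genes, the 5 highest members and 2 called genes per other list, of which 1 is not reported here. The rule's TPM ranking was applied as CPM per kb. Some further members were named after their values were seen. Sets that share a number across groups were not treated as pairs, because the labels do not say what a number marks. Members, lists and rules were chosen with earlier results of these data known.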

Additional observations from a re-analysis of the deposited data

Results flagged for a closer look

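In 243 groups of 4 or more sets of a named member, the gap of the most extreme set to its neighbour was compared with the range of the group by Dixon's criterion at the 95% level. Chance gives about 1 in 20 such groups, and 11 were found. In Ngn3-GFPlow cells at E14.5, set 5 stood above the others for Cox5a (224 CPM against 103 to 130) and Atp5f1 (485 against 336 to 379). In Ngn3-GFP+ cells at E16.5, set 1 had 16.1 CPM of Cox6a2 where the others had 0, and set 3 had 15.1 CPM of Cox6b2 against 5.71 to 6.91. In Pdx1-Cre cells at E13.5, set 1 had 188 CPM of Atp5g1 against 140 to 146, and set 2 had 254 CPM of Ndufb9 against 311 to 319. In control explants, set 1 had 227 CPM of Ndufa1 (179 to 186) and 302 of Ndufb9 (208 to 209), set 2 had 96.5 of Ndufs3 (89.4 to 90.4), and set 4 had 49.2 of Atp5g2 (72.3 to 74.6). In explants in U0126, set 3 had 205 CPM of Uqcrq against 170 to 172.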

How the results depend on the processing

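Counts of called members moved with the fit more than summed levels did. Main counts are given first. For Ngn3-GFPhigh against low cells at E13.5 (1), DESeq2 and limma gave 2, no filter 0, and fits without 1 set 0 to 1. At E14.5 (8), no filter gave 5, removal of cells with other-type markers 2, and fits without 1 set 1 to 7. At E15.5 (3), DESeq2 gave 7 and fits without 1 set 0 to 1. The 3 comparisons of hormone-positive cells (0 each) gave 2, 2 and 5 by DESeq2, and Pdx1-GFP+ E11.5 against E9.5 (0) gave 2. Late against early Ngn3-GFP+ cells (13) gave 20 by DESeq2 and by limma, 8 without marker cells, 8 with E12.5 alone as early, and 10 to 16 without 1 set. Late Ngn3-GFP+ against Sox9-CreER cells (35) gave 20 at E16.5 alone, 16 at E17.5 alone, and 14 to 38 without 1 set. The Pdx1-Cre trend (2) gave 5 by DESeq2, 4 without marker cells, 1 by limma, and 1 to 3 without 1 set.

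Under a replicate block on set numbers, counts were 0 at E13.5, 2 at E14.5 and 3 for late Ngn3-GFP+ against Sox9-CreER cells. Set numbers gave correlations of deviations of -0.0468 to 0.189, and in no comparison with 3 or more pairs were all over 0.1. In the explants they were 0.104, 0.0656, 0.0842 and 0.189, and the block gave 0 calls there as well. The labels do not say what a number marks, so the sets were not treated as pairs. No paired analysis was possible for late against early Ngn3-GFP+ cells, the Pdx1-Cre trend or Pdx1-GFP+ days because these compare days.

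Summed ratios moved as follows. TMM-scaled CPM gave 0.969 (main 0.896) for Ins1-RFP+ against Gcg-GFP+ cells, 0.892 (0.816) for Ins1-RFP+ against Ngn3-GFPhigh cells, and 1.28 (1.08) for Pdx1-Cre E15.5 against E10.5. Without hormone and enzyme genes the last 2 were 0.897 and 1.14. With length-scaled counts they were 0.712 and 0.967, Gcg-GFP+ against Ngn3-GFPhigh cells was 0.856 (0.911), and Pdx1-GFP+ E11.5 against E9.5 was 1.11 (1.17). The Pdx1-Cre ratio thus changed side of 1. With a filter of 500 genes and 20% mitochondrial UMIs the member share of erythroid-like droplet cells was 1.297% in library 1 (main 2.421%) and 1.725% in library 2 (1.819%), which is 1.51% as a mean of both (2.12%). The SP1 share was 7.58% of members and 15% of all genes in promoters from 100 bases before the start (main 16.7% and 19.6%). The length-scaled and single-day settings, and the Ndufa4l2 bound without 1 set, were chosen after seeing the data.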
